A study of Mus musculus with 6 samples.

Results

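The unfolded protein response and the integrated stress response were followed through 44 listed genes of endoplasmic reticulum (ER) chaperones, ER-associated degradation and the ATF4/CHOP amino acid response. The 44 genes were chosen by symbol from the 35976 genes of the count tables, and all 44 were found. RNA was sequenced from cultures of dorsal root ganglia (DRG), which hold the cell bodies of sensory neurons, prepared from the pooled lumbar ganglia of wildtype adult C57BL/6 mice of both sexes. After 24 h on the dish, 3 cultures received vehicle and 3 received HC-HA/PTX3, a complex of hyaluronic acid and the protein pentraxin 3 purified from human amniotic membrane, at 15 µg/mL for another 24 h. The methods describe the same culture protocol for both groups, in medium with fetal bovine serum, antibiotics and growth factors. The paper also reports some batch effects in these data, and which culture belonged to which batch is not given. Whether cultures of a group came from separate animals is not given in the sources used here, so the p-values speak for these cultures only. The main treatment test compared cultures of the same number. Its p-values therefore measure how evenly the change repeated over the 3 numbered pairs. The question was whether a day with HC-HA/PTX3 changes the expression of these genes within same-numbered replicates.

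Proteins that misfold in the ER are sensed by membrane proteins that reach the nucleus by separate routes. IRE1 (Ern1) splices the Xbp1 mRNA, ATF6 is cut to release a transcription factor, and both routes raise chaperones and degradation factors, whereas PERK (Eif2ak3) phosphorylates the initiation factor eIF2α. Phosphorylated eIF2α is the hub of the integrated stress response, which slows translation in general while favouring that of ATF4, a transcription factor for amino acid synthesis, amino acid import and the stress factor CHOP (Ddit3), and injury of sensory axons is a known trigger of such stress factors in DRG neurons. Counts per gene show mRNA abundance, and not splicing of Xbp1, cleavage of ATF6, phosphorylation or translation.

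The counts were whole reads per gene, with library totals of 42516054, 42617496 and 54117547 in vehicle replicates 1, 2 and 3 and of 37998071, 37434266 and 38420247 in HC-HA/PTX3 replicates 1, 2 and 3. Levels are given as CPM, in which counts are scaled by library size and by factors from the trimmed mean of M-values (TMM). All 44 genes passed the filter on low counts, as did 18277 genes in all, and the lowest level of a listed gene in any culture was 3.52 CPM (Pycr1). The genes fall into an ER arm of 22 genes (14 chaperones and foldases, 4 genes of ER-associated degradation, and the 3 sensors with Xbp1) and an ATF4 arm of 22 genes (6 transcription factors, 5 stress effectors, 8 enzymes of amino acid synthesis and 3 amino acid transporters).

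Across the 44 genes the ER chaperones and the ATF4 arm differed in opposite directions with the replicate number. HC-HA/PTX3 took 0 of the 44 past the thresholds on the adjusted p-value and the fold change in either direction, where 3.32% of all tested genes were higher and 5.38% lower. On the adjusted p-value alone 3 were higher and 7 lower (7.67% and 11.5% of all genes), and the median log2 fold change was -0.05 in the ER arm and -0.04 in the ATF4 arm. Both cultures numbered 3 lay above the other 4 for 17 of 22 genes of the ATF4 arm (15.2% of all genes) and below the other 4 for 12 of 22 genes of the ER arm (18.6% of all genes), 10 of them among the 14 chaperones and foldases. An F test over the 3 numbers, which asks whether any of them differ and not which, passed for 19 genes of the ATF4 arm and 17 of the ER arm, as for 33.8% of all genes. What a replicate number marks (a day, a batch or a set of animals) is not given in the sources used here, and the differences by replicate number were noticed in the data and not planned.

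Per kilobase of exon, ER chaperones had the highest levels of the 44 genes. In the vehicle cultures Calr (calreticulin, a calcium-binding chaperone of glycoproteins) stood at 261 ± 76.3 CPM per kb, Hsp90b1 (GRP94) at 156 ± 47.4, Pdia3 (a disulfide isomerase that works with calreticulin) at 149 ± 38.0, Hspa5 (BiP, the main ER chaperone) at 120 ± 19.5 and Canx (calnexin) at 114 ± 16.9 CPM per kb (SD, n = 3 each). The range of 1 SD around the mean of each overlaps that of its neighbour in this order. Atf4 at 92.1 ± 61.8, Atf5 at 81.8 ± 34.3 and Asns (asparagine synthetase) at 63.7 ± 23.6 CPM per kb led the ATF4 arm, with the wide SDs that the cultures numbered 3 gave them. The sensors were transcribed at lower levels, with Atf6 at 11.9 ± 0.847, Eif2ak3 at 9.74 ± 0.278 and Ern1 at 3.74 ± 0.771 CPM per kb, while Xbp1 stood at 27.8 ± 3.36 CPM per kb (SD, n = 3 each). Psph, Nupr1 and Pycr1 were the lowest of the 44, at 2.81 ± 0.328, 2.73 ± 0.627 and 1.38 ± 0.481 CPM per kb.

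**Figure D1:**
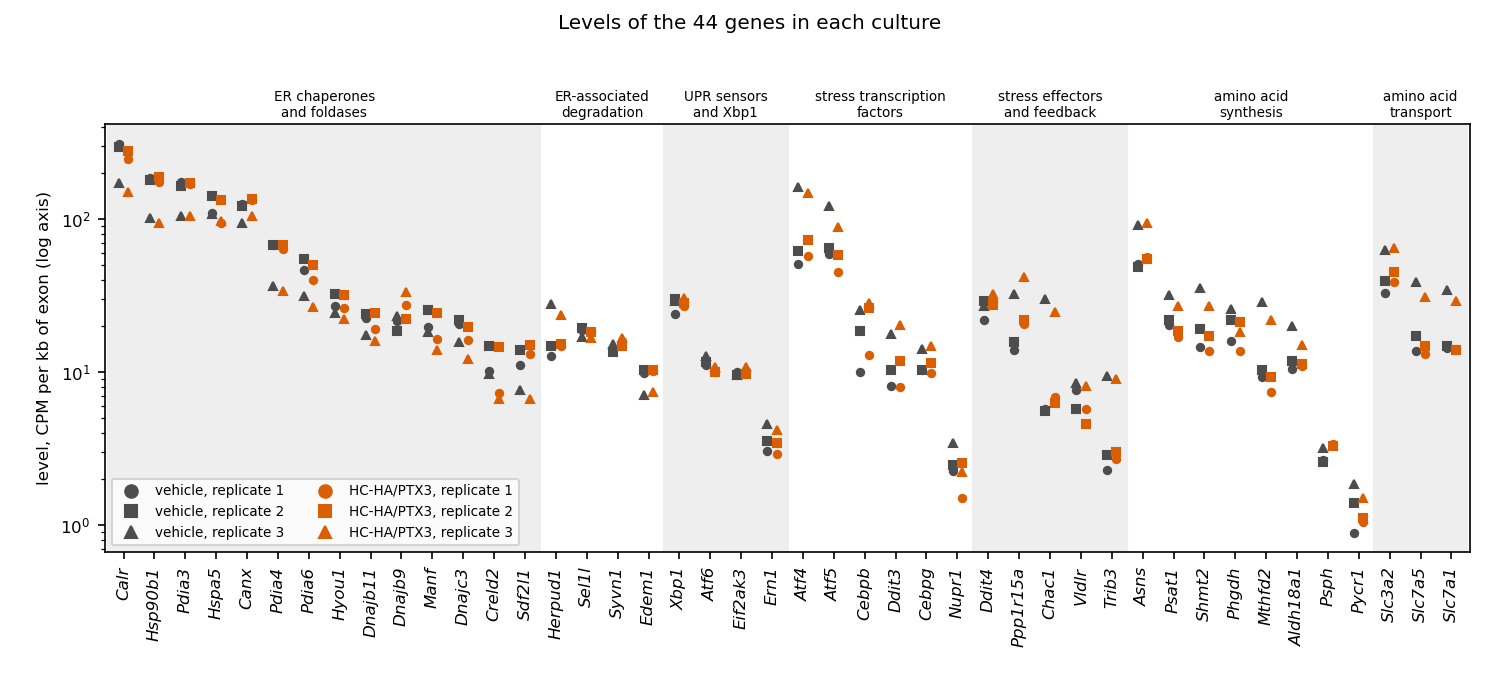
Level of each of the 44 genes in each culture, in CPM per kb of exon on a log axis, by role and in order of the vehicle mean; grey symbols are vehicle and orange symbols HC-HA/PTX3 cultures, and the symbol shape gives the replicate number. Triangles (replicate 3) lie below the other symbols for most chaperones and above them for most genes of the ATF4 arm, in both colours.

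Promoters of the 2 arms were searched for motifs tied to the stress response. A RefSeq table of promoters (build GRCm38.p6, from 250 bases before to 50 bases after the start of the gene) held 40 of the 44 genes with 44 promoters; Manf, Hyou1, Atf6 and Slc7a5 had no entry in it. The ER stress element, which ATF6 and the CCAAT-binding factor NF-Y recognise together, was searched on both strands as CCAAT, 9 bases, then CCACG. It was found at 8 of 19 genes of the ER arm (Hspa5, Hsp90b1, Calr, Canx, Pdia6, Dnajc3, Creld2 and Syvn1) and 0 of 21 genes of the ATF4 arm, against 0.119% of all 32851 promoters in the table. The composite element of C/EBP and ATF factors that ATF4 binds, searched on both strands as TGATGNAA, was found at 6 of 21 genes of the ATF4 arm (Nupr1, Trib3, Chac1, Vldlr, Asns and Pycr1) and 1 of 19 genes of the ER arm, Herpud1, against 3.97% of all promoters. The element TGACGTG, tied to XBP1 and ATF6, was found at 1 gene of the ER arm (Hspa5) and 0 of the ATF4 arm, against 2.01% of all promoters. CCACG, the last 5 bases of the ER stress element, was found at 16 of 19 genes of the ER arm (84.2%) and 16 of 21 of the ATF4 arm (76.2%). Counted by promoter it was found at 16 of 19 (84.2%) and 17 of 25 (68%), against 32.8% of all promoters. The difference between the arms was not tested. The search covered only these letters in these windows.

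The sequences below are a choice among those that qualify, since Pdia6 and Dnajc3 also hold an ER stress element and differed in the same direction. Each lies upstream of both the RefSeq and the GENCODE M21 start of the gene, 5′ to 3′ on the strand of the gene, and they are shown because their genes differed among the replicate numbers, with the mean of replicate 3 on the side of the arm whose motif they hold. Capitals mark the match of either motif. Hsp90b1 (chr10:86705510-86705694, minus strand) holds 2 ER stress elements, and Calr (chr8:84846935-84847181, minus), Canx (chr11:50325674-50325923, minus) and Creld2 (chr15:88819396-88819645, plus) hold 1 each.
Hsp90b1: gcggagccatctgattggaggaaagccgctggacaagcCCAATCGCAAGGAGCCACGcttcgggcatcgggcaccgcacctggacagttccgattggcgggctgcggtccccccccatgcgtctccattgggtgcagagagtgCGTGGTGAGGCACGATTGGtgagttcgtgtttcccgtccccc
Calr: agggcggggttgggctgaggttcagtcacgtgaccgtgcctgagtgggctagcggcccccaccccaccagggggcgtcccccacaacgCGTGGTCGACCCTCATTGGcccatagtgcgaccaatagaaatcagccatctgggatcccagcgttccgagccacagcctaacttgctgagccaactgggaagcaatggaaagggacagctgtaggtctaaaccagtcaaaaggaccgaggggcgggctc
Canx: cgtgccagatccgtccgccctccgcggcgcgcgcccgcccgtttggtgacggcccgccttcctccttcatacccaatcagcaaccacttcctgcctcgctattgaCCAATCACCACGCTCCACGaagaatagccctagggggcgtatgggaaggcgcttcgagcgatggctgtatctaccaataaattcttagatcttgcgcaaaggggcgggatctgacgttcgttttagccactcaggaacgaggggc
Creld2: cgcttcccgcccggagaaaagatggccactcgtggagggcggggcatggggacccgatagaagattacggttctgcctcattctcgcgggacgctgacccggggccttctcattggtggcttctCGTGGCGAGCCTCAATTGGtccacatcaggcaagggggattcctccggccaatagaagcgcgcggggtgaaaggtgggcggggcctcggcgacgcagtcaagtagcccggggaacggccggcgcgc
Herpud1 (chr8:94386179-94386428, plus), Chac1 (chr2:119350992-119351228, plus) and Pycr1 (chr11:120643770-120643998, minus) hold the ATF4 motif.
Herpud1: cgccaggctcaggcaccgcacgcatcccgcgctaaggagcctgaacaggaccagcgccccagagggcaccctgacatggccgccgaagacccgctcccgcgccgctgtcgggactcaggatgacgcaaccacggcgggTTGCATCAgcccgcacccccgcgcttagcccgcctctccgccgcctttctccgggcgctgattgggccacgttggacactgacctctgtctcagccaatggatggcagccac
Chac1: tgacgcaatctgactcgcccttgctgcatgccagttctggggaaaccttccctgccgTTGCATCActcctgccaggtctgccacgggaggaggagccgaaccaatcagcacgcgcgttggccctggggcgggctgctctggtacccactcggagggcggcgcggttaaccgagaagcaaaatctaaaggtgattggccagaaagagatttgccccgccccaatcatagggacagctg
Pycr1: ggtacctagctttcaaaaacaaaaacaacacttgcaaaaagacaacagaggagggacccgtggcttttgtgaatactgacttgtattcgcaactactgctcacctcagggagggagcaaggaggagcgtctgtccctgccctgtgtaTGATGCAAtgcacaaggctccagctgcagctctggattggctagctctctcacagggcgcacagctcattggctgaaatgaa

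The treatment was tested with edgeR's quasi-likelihood test with the replicate number as a block, so that each HC-HA/PTX3 culture was set against the vehicle culture of its number. A gene was called where its p-value, adjusted over all 18277 genes by Benjamini and Hochberg, was under 0.05 and its absolute log2 fold change over 0.5. Of the 44 genes, 0 were called higher, where 3.32% of all tested genes were, and 0 were called lower, where 5.38% were. The unadjusted p-value was under 0.05 for 21 of the 44 genes, and for 33.2% of all tested genes. DESeq2, limma-voom and ComBat-seq with limma called 0 of the 44 as well, with 17, 22 and 24 of them at an unadjusted p-value under 0.05. The share of all genes at that p-value was not computed for these tools. With a single culture left out, Ppp1r15a was called higher without either culture numbered 3, and Creld2 was called lower without either culture numbered 2, joined by Nupr1 without HC-HA/PTX3 replicate 2. Leaving out the block, edgeR called 0 of all 18277 genes, and the unadjusted p-value was under 0.05 for 0 of the 44 and for 11.4% of all genes. For 39 of the 44 genes the 95% interval of the log2 fold change lay wholly between -0.5 and 0.5, which held for 52.1% of all tested genes.

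Without the threshold on the fold change, 3 of the 44 were higher at an adjusted p-value under 0.05 (7.67% of all genes) and 7 were lower (11.5% of all genes). The 3 were Ppp1r15a, Dnajb9 and Cebpb, and the 7 were Dnajc3, Manf, Atf6, Atf5, Vldlr, Psat1 and Mthfd2. The count of 7 depended on single cultures: it was 0 without HC-HA/PTX3 replicate 1, 1 without vehicle replicate 1, vehicle replicate 3 or HC-HA/PTX3 replicate 3, and 4 and 8 without vehicle and HC-HA/PTX3 replicate 2. The count of 3 was then 2 or 3, always with Ppp1r15a and Dnajb9. With ComBat-seq and limma 8 were higher and 12 lower, and with no filter on low counts 3 and 15. With DESeq2 and with raw library sizes 5 were lower, and with upper-quartile scaling 4, with Atf6 and Manf lost in each. The shares of all genes above belong to the main fit, and shares without the fold threshold were not computed for the other settings. With the fold threshold, ComBat-seq and limma called 2137 of 18150 genes, and edgeR with no filter 2006 of 30347. The 3 treated cultures lay wholly above the 3 vehicle cultures for 1 of the 44 genes, Psph (9.44% of all genes), and wholly below them for 1, Atf6 (8.57% of all genes). The median log2 fold change of all 44 genes was -0.05, and that of all tested genes was -0.01. The treated culture was higher in 3 of 3 pairs for 10 of the 44 (25.2% of all genes) and lower in 3 of 3 for 18 (28.7% of all genes). Fitted changes were above 0 for 20 of the 44 and below 0 for 24, and 48.9% of all genes were above 0.

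**Figure D2:**
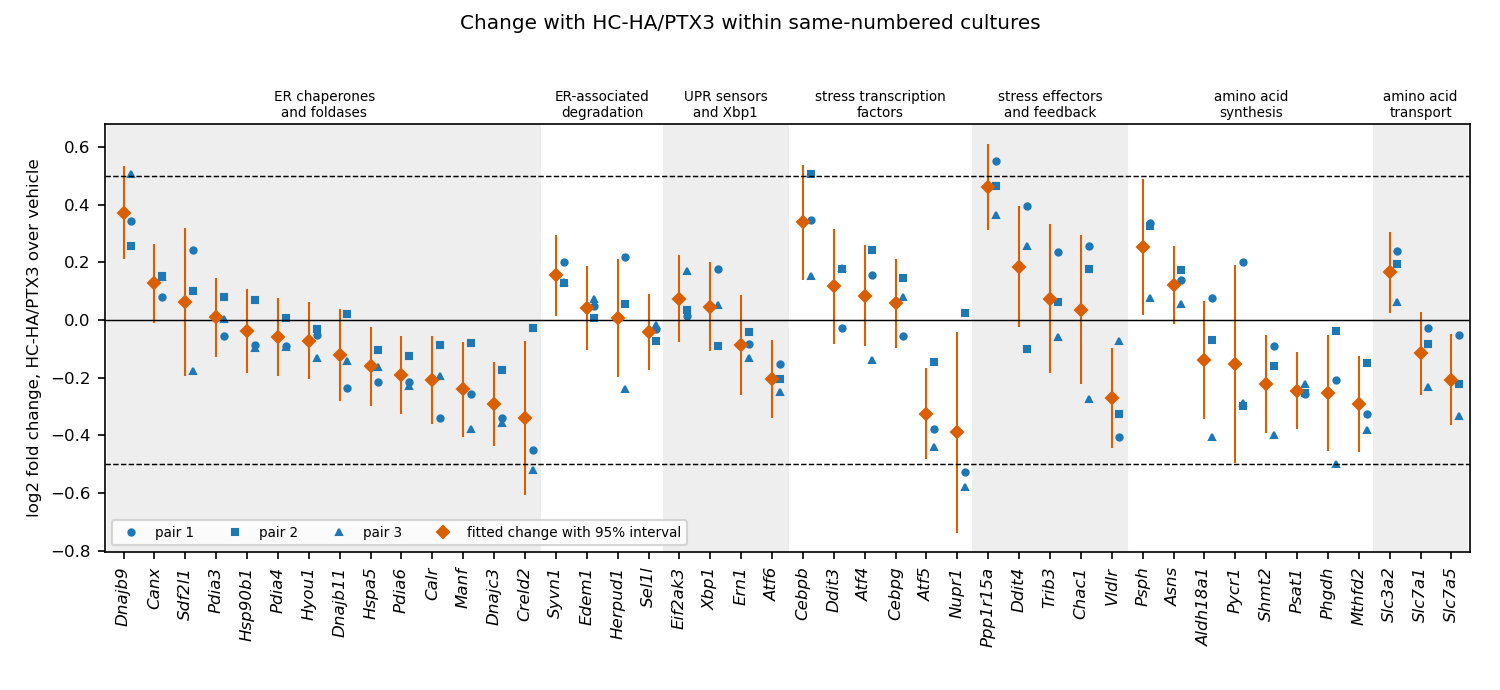
Log2 fold change of HC-HA/PTX3 over vehicle for the 44 genes, by role. Orange diamonds are the fitted changes with their 95% intervals, blue symbols the log2 ratio of CPM + 0.5 within pairs 1, 2 and 3, and dashed lines the threshold of 0.5; every diamond lies between the dashed lines, from -0.39 (Nupr1) to 0.46 (Ppp1r15a).

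Among the ER chaperones and foldases, Dnajb9 (ERdj4, a BiP co-chaperone and a target of XBP1) had 55.2, 47.7 and 59.7 CPM in vehicle replicates 1, 2 and 3 and 70.1, 57.1 and 84.9 CPM in the HC-HA/PTX3 replicates. Each treated culture was above the vehicle culture of its number, although treated replicate 2 was below vehicle replicate 3. Its log2 fold change was 0.37 (SE 0.07, edgeR adjusted p = 0.00684). Dnajc3 (p58IPK, a BiP co-chaperone and inhibitor of PERK) had 106, 114 and 80.7 CPM with vehicle and 83.4, 101 and 62.9 CPM with HC-HA/PTX3, a log2 fold change of -0.29 (SE 0.07, edgeR adjusted p = 0.0132). Manf, a secreted ER protein with trophic effects on neurons, had 69.6, 90.3 and 64.5 CPM with vehicle and 58.1, 85.4 and 49.5 CPM with HC-HA/PTX3, a log2 fold change of -0.24 (SE 0.07, edgeR adjusted p = 0.0468). For Dnajc3 and Manf the treated culture was the lower one in 3 of 3 pairs, and the groups overlapped.

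Hspa5 had 464, 604 and 458 CPM with vehicle and 399.9, 562 and 409.7 CPM with HC-HA/PTX3. The treated culture was lower in each pair, and the highest treated culture, replicate 2, exceeded vehicle replicates 1 and 3. The log2 fold change was -0.16 (SE 0.06, edgeR adjusted p = 0.0981), with a 95% interval from -0.30 to -0.02. Over the 14 chaperones the fitted changes ran from -0.34 (Creld2) to 0.37 (Dnajb9) with a median of -0.10, and 10 of the 14 were below 0. Creld2, a disulfide isomerase, was called lower without vehicle replicate 2 (-0.51, adjusted p = 0.0426) and without HC-HA/PTX3 replicate 2 (-0.52, adjusted p = 0.0187), against an edgeR adjusted p of 0.0749 with all cultures.

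In ER-associated degradation 0 of the 4 genes had an adjusted p-value under 0.05 in edgeR's test, and 1 had an unadjusted p-value under 0.05. That gene, Syvn1 (the ubiquitin ligase HRD1), had 67.6, 65.9 and 73.8 CPM with vehicle and 77.9, 72.0 and 80.9 CPM with HC-HA/PTX3, a log2 fold change of 0.15 (SE 0.06, edgeR adjusted p = 0.117). Sel1l, the partner of HRD1, had 161, 166 and 145 CPM with vehicle and 157, 157 and 143 CPM with HC-HA/PTX3, with a log2 fold change of -0.04 (95% interval -0.17 to 0.09). Edem1, which extracts misfolded glycoproteins, had 63.7, 66.6 and 45.8 CPM with vehicle and 65.9, 66.8 and 48.2 CPM with HC-HA/PTX3, with a log2 fold change of 0.04 (95% interval -0.10 to 0.19). The groups overlapped for each of these genes, and Herpud1, the fourth, had a log2 fold change of 0.01.

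Of the sensors, Atf6 (chromosome 1 of mm10, 170704674 to 170867771) had 104, 107 and 118 CPM with vehicle and 93.2, 92.6 and 99.5 CPM with HC-HA/PTX3. The highest treated culture was below the lowest vehicle culture. The log2 fold change was -0.20 (SE 0.06, edgeR adjusted p = 0.0413), below the fold threshold, and the adjusted p-value was over 0.05 with each single culture left out, from 0.0728 without vehicle replicate 1 to 0.261 without HC-HA/PTX3 replicate 3. Ern1 had 25.1, 29.2 and 37.5 CPM with vehicle and 23.7, 28.3 and 34.2 CPM with HC-HA/PTX3, a log2 fold change of -0.09 (95% interval -0.26 to 0.09). Eif2ak3 had 60.6, 57.5 and 58.0 CPM with vehicle and 61.2, 59.0 and 65.3 CPM with HC-HA/PTX3, a log2 fold change of 0.07 (95% interval -0.08 to 0.23). Total Xbp1 had 77.7, 97.7 and 95.2 CPM with vehicle and 87.9, 91.7 and 98.7 CPM with HC-HA/PTX3, a log2 fold change of 0.05 (95% interval -0.11 to 0.20). For Ern1, Eif2ak3 and Xbp1 the groups overlapped.

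Of the stress transcription factors, Atf4 (chromosome 15, 80255184 to 80257541) had 121, 146 and 385 CPM with vehicle and 135, 173 and 349 CPM with HC-HA/PTX3. The 2 cultures numbered 3 stood far above the other 4, and the treated culture was higher in pairs 1 and 2 and lower in pair 3. Its log2 fold change was 0.08 (95% interval -0.09 to 0.26, edgeR adjusted p = 0.489). Ddit3, which encodes CHOP, had 14.0, 17.8 and 30.5 CPM with vehicle and 13.7, 20.2 and 34.6 CPM with HC-HA/PTX3, a log2 fold change of 0.12 (95% interval -0.08 to 0.32, edgeR adjusted p = 0.401). Neither factor separated the treatments.

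Atf5, a factor related to ATF4 and likewise controlled by translation, had 118, 129 and 242 CPM with vehicle and 90.5, 117 and 178 CPM with HC-HA/PTX3, a log2 fold change of -0.32 (SE 0.07, edgeR adjusted p = 0.0115). Cebpb (C/EBPβ, which pairs with ATF4 and CHOP) had 15.2, 27.8 and 38.4 CPM with vehicle and 19.4, 39.6 and 42.8 CPM with HC-HA/PTX3, a log2 fold change of 0.34 (SE 0.09, edgeR adjusted p = 0.0258). Nupr1, a stress-induced chromatin cofactor, had 5.69, 6.26 and 8.66 CPM with vehicle and 3.80, 6.38 and 5.64 CPM with HC-HA/PTX3, a log2 fold change of -0.39 (SE 0.16, edgeR adjusted p = 0.112). Atf5 was lower and Cebpb higher in 3 of 3 pairs with overlapping groups, whereas Nupr1 was lower in pairs 1 and 3 and was nearly level in pair 2. Without HC-HA/PTX3 replicate 2 Nupr1 was called lower, at -0.61 (adjusted p = 0.024).

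Ppp1r15a encodes GADD34, which directs the phosphatase that restores eIF2α and so ends the response. It lies on chromosome 7 from 45522916 to 45526268 and had 41.0, 46.5 and 95.1 CPM with vehicle and 60.3, 64.4 and 122 CPM with HC-HA/PTX3. The treated culture was higher in each pair, by 0.55, 0.47 and 0.36 on the log2 scale, while the groups overlapped because vehicle replicate 3 exceeded treated replicates 1 and 2. The log2 fold change was 0.46 (SE 0.07, edgeR adjusted p = 0.00188), the smallest p-value of the 44 genes. It passed the fold threshold without vehicle replicate 3 (0.51, adjusted p = 0.00171) and without HC-HA/PTX3 replicate 3 (0.53, adjusted p = 0.00156). Without the block its adjusted p-value was 0.746.

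Of the other stress effectors, Vldlr, a lipoprotein receptor, had 77.0, 58.3 and 85.8 CPM with vehicle and 57.9, 46.4 and 81.6 CPM with HC-HA/PTX3, a log2 fold change of -0.27 (SE 0.08, edgeR adjusted p = 0.0374). Ddit4 (REDD1, an inhibitor of mTORC1) had 38.7, 51.6 and 47.2 CPM with vehicle and 50.9, 48.0 and 56.6 CPM with HC-HA/PTX3, a log2 fold change of 0.18 (95% interval -0.03 to 0.40). Vldlr was lower in each pair and Ddit4 was higher in pairs 1 and 3 and lower in pair 2. Chac1 and Trib3, among the genes with the widest range between cultures, had log2 fold changes of 0.04 (95% interval -0.22 to 0.29) and 0.07 (95% interval -0.18 to 0.33).

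In amino acid synthesis, Psat1 (serine synthesis) had 86.2, 94.0 and 135 CPM with vehicle and 72.2, 78.7 and 116 CPM with HC-HA/PTX3, a log2 fold change of -0.24 (SE 0.06, edgeR adjusted p = 0.0188). With each single culture left out, the adjusted p-value of Psat1 was no longer under 0.05. Mthfd2 (mitochondrial folate metabolism) had 32.7, 36.2 and 100.3 CPM with vehicle and 25.9, 32.6 and 76.9 CPM with HC-HA/PTX3, a log2 fold change of -0.29 (SE 0.07, edgeR adjusted p = 0.0228). Shmt2, which supplies that pathway from serine, had 45.5, 59.6 and 111 CPM with vehicle and 42.7, 53.3 and 84.2 CPM with HC-HA/PTX3, a log2 fold change of -0.22 (SE 0.08, edgeR adjusted p = 0.0684). Each of these enzymes was lower in the treated culture of 3 of 3 pairs, with overlapping groups. Psph, the last enzyme of serine synthesis, had 11.5, 11.2 and 13.8 CPM with vehicle and 14.6, 14.2 and 14.6 CPM with HC-HA/PTX3. Its groups did not overlap, and its log2 fold change was 0.25 (SE 0.11, edgeR adjusted p = 0.125). Of the 8 enzymes, 6 had fitted changes below 0, with a median of -0.19.

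The amino acid transporters had fitted changes of -0.21 to 0.16. Slc7a5 (LAT1, an importer of leucine and other large amino acids) had 50.7, 64.0 and 145 CPM with vehicle and 48.9, 54.8 and 115 CPM with HC-HA/PTX3, a log2 fold change of -0.21 (SE 0.07, edgeR adjusted p = 0.069). Slc3a2, the heavy chain that brings LAT1 to the membrane, had 116, 140 and 221 CPM with vehicle and 137, 160 and 230.5 CPM with HC-HA/PTX3, a log2 fold change of 0.16 (SE 0.06, edgeR adjusted p = 0.0967). Slc7a1 (CAT1, an arginine and lysine importer) had 166, 170 and 398 CPM with vehicle and 163, 161 and 338 CPM with HC-HA/PTX3, a log2 fold change of -0.12 (95% interval -0.26 to 0.03). The partners Slc7a5 and Slc3a2 thus had fitted changes of opposite sign, and the difference between them was not tested.

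Replicate number was then read from the same fit, as an F test over the 3 numbers with treatment kept in the model, so a gene can pass through any of the numbers. At an adjusted p-value under 0.05, 36 of the 44 genes differed among the numbers, as did 33.8% of all tested genes. The direction was read as the log2 difference of replicate 3 from the mean of replicates 1 and 2. Differing genes with replicate 3 higher numbered 22 of the 44 (14.9% of all genes), and those with replicate 3 lower numbered 14 (18.9% of all genes). Both cultures numbered 3 lay above the other 4 for 19 of the 44 (15.2% of all genes) and below the other 4 for 12 (18.6% of all genes). The median absolute difference of replicate 3 was 0.60 over the 44 genes and 0.24 over all tested genes, beside median absolute treatment changes of 0.15 and 0.19.

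In the ATF4 arm 19 of 22 genes differed, all 19 with replicate 3 higher than the mean of replicates 1 and 2, and the median log2 difference over the 22 was 0.79. The summed level of the arm was 1236, 1373 and 2606 CPM in vehicle replicates 1, 2 and 3 and 1245, 1403 and 2361 CPM in the HC-HA/PTX3 replicates. Chac1 (chromosome 2, 119351229 to 119354381), which encodes an enzyme that breaks down glutathione, had 9.41, 9.10 and 49.2 CPM with vehicle and 11.3, 10.4 and 40.7 CPM with HC-HA/PTX3. The cultures numbered 3 had over 3 times the level of the other 4, whatever the treatment, a log2 difference of 2.17 (SE 0.12, edgeR adjusted p of the replicate number = 1.84e-06). Trib3, a pseudokinase that restrains ATF4 and CHOP, had 4.84, 6.15 and 20.1 CPM with vehicle and 5.79, 6.44 and 19.3 CPM with HC-HA/PTX3, a log2 difference of 1.77. The difference was 1.37 for Atf4, 1.47 for Mthfd2, 1.25 for Slc7a5, 1.16 for Slc7a1, 1.05 for Ppp1r15a, 1.01 for Ddit3 and 0.81 for Asns. For each of these genes both cultures numbered 3 lay above the other 4. Nupr1, Ddit4 and Psph did not pass, with differences of 0.37, 0.13 and 0.15.

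Among the 14 chaperones and foldases, 14 differed, 13 with replicate 3 lower and Dnajb9 with replicate 3 higher, and the median log2 difference was -0.48. Their summed level was 4120.2, 4242 and 2804 CPM in vehicle replicates 1, 2 and 3 and 3765, 4251 and 2659 CPM in the HC-HA/PTX3 replicates. Calr (chromosome 8, 84841850 to 84846934) had 898, 855 and 498 CPM with vehicle and 709.6, 805 and 435 CPM with HC-HA/PTX3, a log2 difference of -0.81 (SE 0.08, edgeR adjusted p of the replicate number = 8.23e-05). Hsp90b1 (chromosome 10, 86690209 to 86705509) had 751, 724 and 408 CPM with vehicle and 708, 759 and 381 CPM with HC-HA/PTX3, a log2 difference of -0.90 (SE 0.07, adjusted p = 2.8e-05). Both cultures numbered 3 were the lowest of the 6 for Calr and Hsp90b1, as for 10 of the 14. For Hspa5, Creld2, Manf and Dnajb9 the cultures numbered 3 overlapped the others. The difference was -0.93 for Pdia4, -0.88 for Sdf2l1, -0.71 for Pdia6 and -0.70 for Pdia3, and -0.21 for Hspa5, whose highest cultures were those numbered 2.

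**Figure D3:**
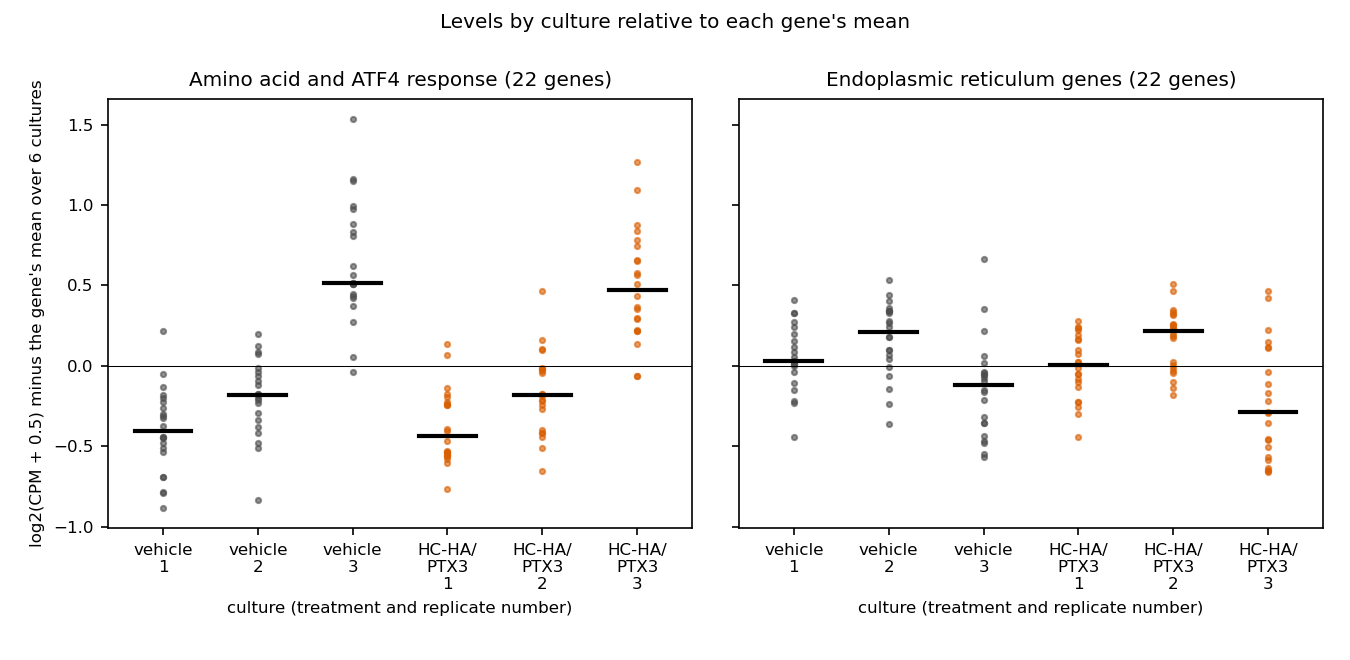
Levels of the 22 genes of the ATF4 arm (left) and the 22 genes of the ER arm (right) in each culture, as log2(CPM + 0.5) minus the mean of the gene over the 6 cultures. Each point is a gene and each bar the median of the arm; on the left both cultures numbered 3 stand highest, and on the right both stand lowest.

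The other genes of the ER arm did not share one direction. Herpud1 (chromosome 8, 94386438 to 94395377), an ER membrane protein of the degradation complex, had 29.9, 34.5 and 64.8 CPM with vehicle and 34.8, 35.8 and 54.8 CPM with HC-HA/PTX3, so both cultures numbered 3 were highest. Its log2 difference was 0.83 (SE 0.10, edgeR adjusted p of the replicate number = 0.000302). Edem1 differed by -0.48, while Syvn1 and Sel1l did not pass, at 0.13 and -0.15. Of the sensors Ern1 passed, at 0.44, with both cultures numbered 3 highest, and Atf6, Eif2ak3 and Xbp1 did not, at 0.14, 0.05 and 0.13.

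**Figure D4:**
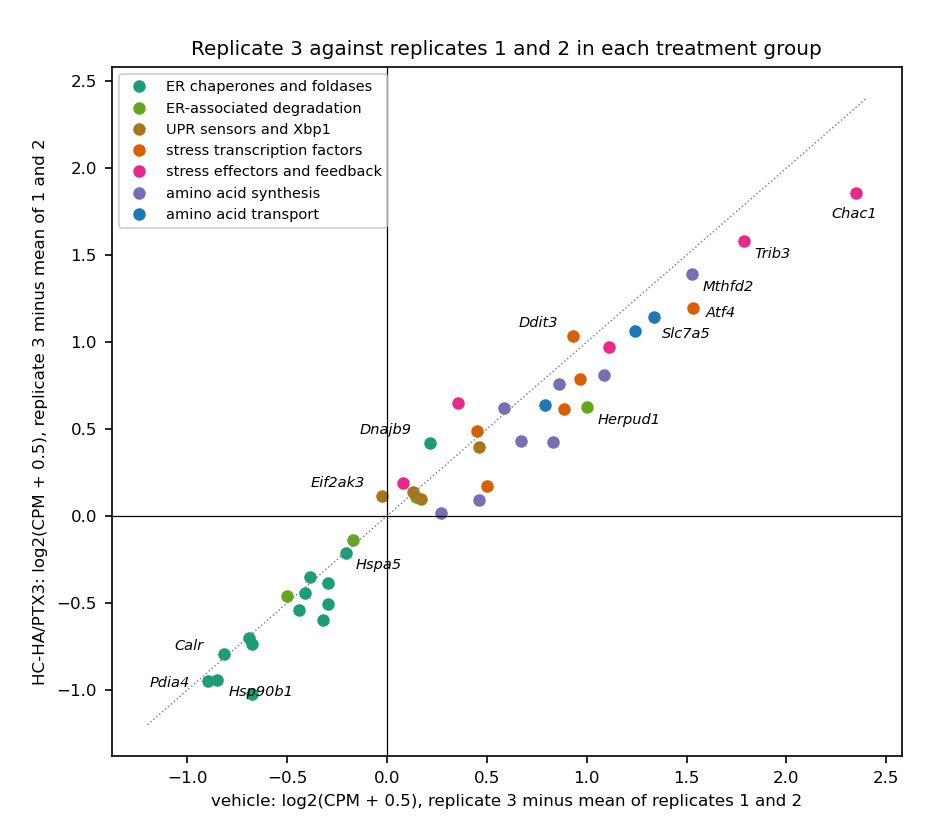
Difference of replicate 3 from the mean of replicates 1 and 2, in log2(CPM + 0.5), in the HC-HA/PTX3 cultures (vertical axis) against the vehicle cultures (horizontal axis), for the 44 genes coloured by role; the dotted line marks equal differences. Points lie along the dotted line, with Chac1 and Trib3 at the upper end and Pdia4 and Hsp90b1 near the lower end.

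Set beside the motifs, 7 of the 8 genes of the ER arm with an ER stress element differed with replicate 3 lower (18.9% of all genes), as did 5 of the 11 without it, and 3 of those 11 differed with replicate 3 higher (14.9% of all genes). The 7 include Hspa5 and Creld2, which did not differ without the cultures numbered 2. All 7 are chaperones or foldases, a role in which 13 of 14 genes differed with replicate 3 lower. Of the chaperones with no element found, Pdia3, Pdia4, Dnajb11 and Sdf2l1 also differed with replicate 3 lower, and Dnajb9 with it higher. The motif and the role of a gene were not separated, and a link of either with the difference was not tested. In the ATF4 arm 5 of the 6 genes with the ATF4 motif differed with replicate 3 higher, as did 13 of the 15 without it. These counts are descriptions of letters in the windows searched.

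Not every one of these differences lay in the cultures numbered 3. Without both of them, 11 of the 44 genes differed between replicates 1 and 2 (12.4% of 18329 tested genes), namely Atf4, Ddit3, Cebpb, Phgdh, Shmt2 and Vldlr of the ATF4 arm and Hspa5, Pdia6, Creld2, Hyou1 and Manf of the ER arm. Without both cultures numbered 2, 31 of the 44 differed between replicates 1 and 3 (23.1% of 18479 tested genes), and Hspa5, Creld2, Manf, Hyou1, Dnajb9 and Vldlr were no longer among them. Without vehicle replicate 3, 35 of the 44 differed (27.0% of all tested genes), and without HC-HA/PTX3 replicate 3, 36 did (26.6%). Whether the treatment changes more in one numbered pair than in another was not tested, and each number has 1 culture of each kind.

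**Figure D5:**
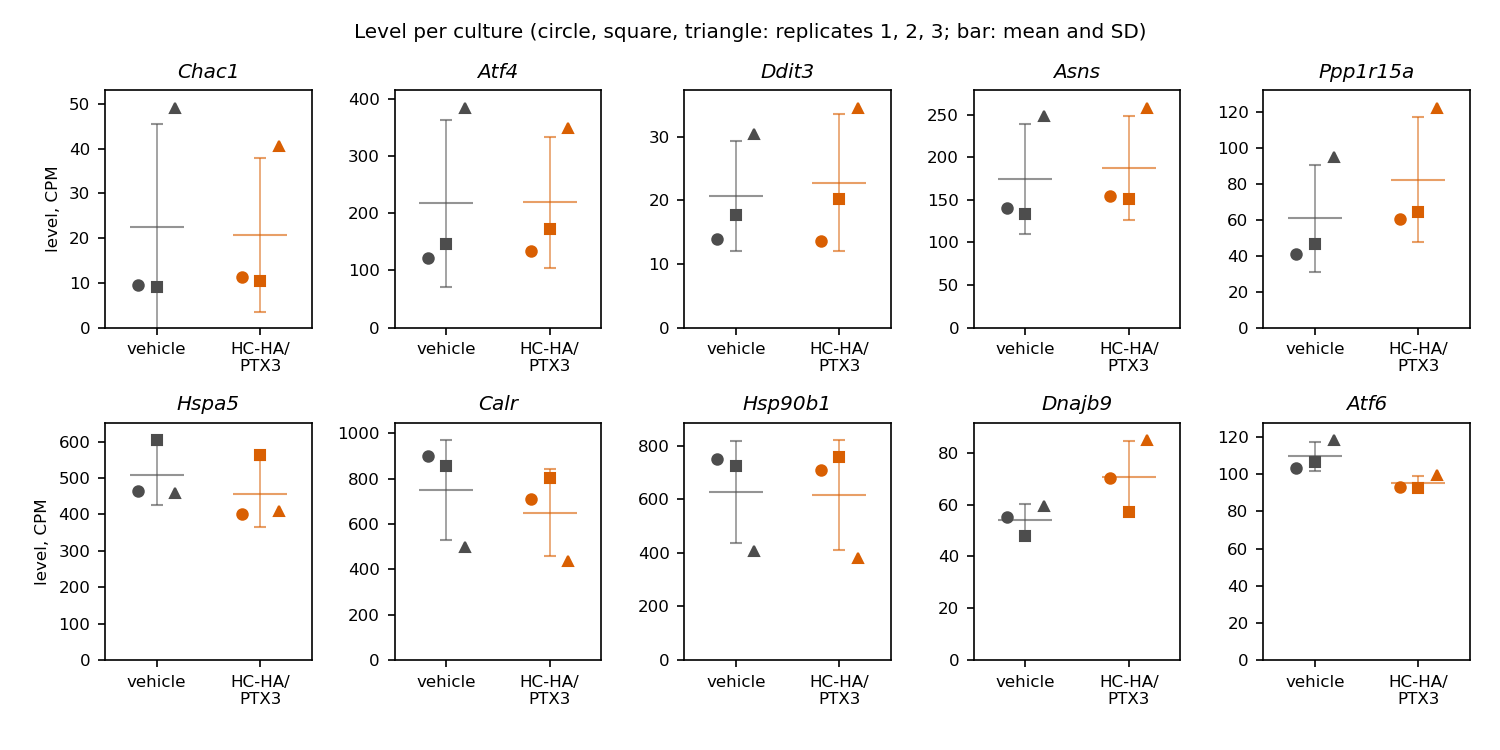
CPM in each culture for 10 of the 44 genes on linear axes from 0; circles, squares and triangles are replicates 1, 2 and 3, long bars the group means and whiskers the SD (n = 3; the lower whisker of Chac1 with vehicle is cut at 0). In the upper row the triangles are highest in both groups, in Calr and Hsp90b1 they are lowest, and Atf6 is the gene among the 10 whose groups do not overlap.

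Markers of other cells differed by replicate number as well, where 18.9% of all tested genes differed with replicate 3 lower. Of 8 satellite glia markers, 8 differed with replicate 3 lower, by a median of -2.48 on the log2 scale, and their summed level was 2254, 1297 and 515 CPM in vehicle replicates 1, 2 and 3 and 2124, 1308 and 516 CPM with HC-HA/PTX3; Apoe was the most abundant. Of 7 fibroblast markers, 5 differed with replicate 3 lower, with summed levels of 2139, 2153 and 895 CPM with vehicle and 1152, 1383 and 303 CPM with HC-HA/PTX3, led by Col3a1. Of 7 genes of dividing cells, 7 differed with replicate 3 lower, with summed levels of 715, 520.2 and 256 CPM with vehicle and 245, 267 and 54.3 CPM with HC-HA/PTX3, led by Mki67. The 10 sensory neuron markers, led by Tubb3, had summed levels of 7843, 6701 and 7435 CPM with vehicle and 8303, 7342 and 8485 CPM with HC-HA/PTX3, and a median log2 difference of 0.11. Of these 10, 4 differed with replicate 3 higher (14.9% of all genes), among them Isl1 by 0.72, and 1 with it lower. Of those 4, both cultures numbered 3 lay above the other 4 for Prph and Isl1, and overlapped them for Snap25 and Uchl1. The lower one, Nefh, had a replicate 3 difference of only -0.0066, and its highest level in each group was in replicate 1. Of 7 markers of myelinating Schwann cells, 4 differed with replicate 3 lower and 1 with it higher. No marker of these lists was at 0 in any culture. Fewer cells of a type and less RNA per cell cannot be told apart in these libraries, and the part of other cells in the differences of the 44 genes was not tested.

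Of these lists, 2 also moved with the treatment. In edgeR's test, which called 5.38% of all tested genes lower, 7 of 7 genes of dividing cells were called lower with HC-HA/PTX3, with a median log2 fold change of -1.44, and 3 of 7 fibroblast markers were called lower (Col1a1 by -1.62, Col1a2 by -1.11 and Col3a1 by -0.96). Of the 8 satellite glia and 10 sensory neuron markers 0 were called in that test, where 5 and 5 had an unadjusted p-value under 0.05, and ComBat-seq with limma called 0 of either. The part of these cells in the treatment changes of the 44 genes was not tested.

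A wider set of 188 genes of the same pathways, in 11 lists, was read from the same fit, and 187 passed the filter. By edgeR with the block 4 were called higher and 5 lower with HC-HA/PTX3, a smaller part of the 187 than the 3.32% and 5.38% of all tested genes, and 0 were called without the block, where 13 had an unadjusted p-value under 0.05. Of 20 further targets of ATF4 and CHOP, 6 were called. Gdf15, a secreted stress hormone, had 0.624, 2.63 and 4.88 CPM with vehicle and 2.24, 4.91 and 14.3 CPM with HC-HA/PTX3, a rise of 1.38 on the log2 scale (SE 0.19, edgeR adjusted p = 0.00133). Bbc3 (PUMA, a promoter of apoptosis) rose by 1.05 (adjusted p = 0.00169), from 4.67, 5.38 and 9.68 CPM to 13.2, 8.73 and 18.8 CPM, and Tnfrsf10b (a death receptor) rose by 0.65 (adjusted p = 0.00847). Sesn2, a stress sensor that restrains mTORC1, rose by 0.59 (adjusted p = 0.0346), from 6.69, 11.8 and 27.9 CPM to 15.9, 15.8 and 31.7 CPM. Each of these 4 genes was higher in the treated culture of 3 of 3 pairs, with overlapping groups. Tnfrsf10b lost its call without either culture numbered 1, and Sesn2 without either culture numbered 1, without vehicle replicate 2 and with limma-voom. As background, the tumour suppressor p53 is known to induce Gdf15, Bbc3, Tnfrsf10b and Sesn2 as well.

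The genes called lower were spread over 4 lists. Shmt1, the cytosolic partner of Shmt2, changed by -1.32 (edgeR adjusted p = 0.0022), from 1.50, 2.98 and 3.61 CPM to 0.701, 1.21 and 1.27 CPM, and Stc2 (stanniocalcin 2) by -0.89 (adjusted p = 0.0427). Slc43a1, a transporter of large neutral amino acids, changed by -1.26 (adjusted p = 0.013) at levels of 0.279 to 1.30 CPM. Kdelr2, a receptor that returns ER proteins from the Golgi, had 106, 114 and 85.7 CPM with vehicle and 66.8, 90.2 and 45.4 CPM with HC-HA/PTX3, a fall of 0.64 on the log2 scale (SE 0.10, adjusted p = 0.00215). Eif2b3, a subunit of the exchange factor that phosphorylated eIF2α blocks, changed by -0.54 (adjusted p = 0.00656), from 18.5, 19.9 and 24.1 CPM to 11.4, 16.0 and 15.9 CPM. The groups did not overlap for Shmt1, Slc43a1 and Eif2b3. Stc2 lost its call without any 1 of the 6 cultures, with DESeq2 and with upper-quartile scaling. Slc43a1 lost it without any culture numbered 1 or 3 and with DESeq2, Eif2b3 without either culture numbered 1, without HC-HA/PTX3 replicate 3 and with ComBat-seq, and Kdelr2 without HC-HA/PTX3 replicate 3. The 15 genes of ER to Golgi transport, Kdelr2 among them, had a median log2 fold change of -0.22, with 13 of 15 fitted changes below 0.

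In the 7 lists with 0 genes called by edgeR, ComBat-seq with limma called 0 as well, and 36 of their 128 tested genes had an unadjusted p-value under 0.05, as did 33.2% of all tested genes. The gene with the smallest p-value was Creld1 (0.35) in ER folding and redox, Ubxn4 (0.32) in ER-associated degradation, Stt3a (-0.42) in ER entry and glycosylation, Crebrf (0.33) among the regulators of the response, Dars (-0.15) among the tRNA synthetases, Afg3l2 (0.29) among the mitochondrial chaperones and proteases, and Hspa4l (0.26) among the cytosolic heat shock proteins, all as log2 fold changes. The adjusted p-value was under 0.05 for each of them except Dars (0.133).

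By replicate number some of the wider lists differed in the direction of an arm and others did not, where 14.9% of all tested genes differed with replicate 3 higher and 18.9% with it lower. Of 20 cytosolic tRNA synthetases, known ATF4 targets in part, 16 differed with replicate 3 higher and 1 with it lower, with a median log2 difference of 0.44. Of 20 further targets of ATF4 and CHOP, 14 were higher and 2 lower, and of 12 amino acid transporters 8 were higher. Of 23 genes of ER entry and glycosylation 0 were higher and 16 lower, with a median of -0.29, and of 15 genes of ER to Golgi transport 0 were higher and 7 lower. Mixed lists were ER-associated degradation (3 higher and 3 lower of 20), ER folding and redox (3 and 8 of 24), the eIF2 kinases, phosphatases and eIF2B (2 and 1 of 12) and the cytosolic heat shock proteins (5 and 2 of 17). The regulators of the response had 0 higher and 4 lower of 12, and the mitochondrial chaperones and proteases 3 higher and 0 lower of 12. Each count is by edgeR's F test of the replicate number at an adjusted p-value under 0.05.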

How the data were processed

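Ribosomal RNA-depleted libraries were sequenced as read pairs by the authors, aligned to mm10 and counted per gene with featureCounts. What the authors deposited are unscaled counts: each culture has its own table, with a whole number for every gene. The methods and the submitters' processing notes name HISAT2, whereas the file headers name STAR; tool versions and the strand setting are not given in the sources used here, so reads of overlapping or antisense genes could have been split. The 10 min arm was not analysed here.

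Groups and replicate numbers were taken from the sample labels. The 44 genes and the lists were chosen with earlier results of these data known. Counts were analysed in R 4.3.3 with edgeR 4.0.16 (filterByExpr with a minimum count of 10, TMM, glmQLFit and glmQLFTest). Benjamini-Hochberg adjustment ran over all tested genes. Replicate number served as the block. The paper's own model holds batch and condition, but its batches are not listed by culture. Whether the numbers match those batches could not be checked. The pairing was checked by correlating, across genes, the deviations of cultures from their group means in log2 CPM (prior count 2). Same-numbered cultures correlated at 0.631, 0.536 and 0.774 and others at -0.613 to 0.148; all same-numbered values exceeded the limit of 0.1, so the numbers were taken as pairs. Ratios within pairs used CPM + 0.5. The 95% intervals came from the standard errors of the fit. Libraries of a group were not copies of each other: the chi-square of their counts, divided by its degrees of freedom, was 34.5 to 119.

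Alternatives were no block, all genes with at least 1 count, at least 10 counts in every culture, DESeq2 1.42.0, upper-quartile scaling, raw library sizes, limma-voom (limma 3.58.1), ComBat-seq (sva 3.50.0) with limma, no fold threshold and each culture left out in turn. Leaving out both cultures of a number, and every test of the replicate number, were chosen after seeing the data. All tests were tried on simulated data. Full values are given for members called, the 3 members of each role with the smallest p-value, the 3 sensors, Xbp1, Atf4, Ddit3 and Hspa5; for other lists, the genes called or the gene with the smallest p-value. Chac1, Trib3, Calr, Hsp90b1, Herpud1 and Psph were chosen after their values were seen. Exon lengths and positions come from GENCODE M21 (mm10) by symbol; Ddit3 has 2 records, of which the wider was used. Promoter sequences are from RefSeq. At these depths 1 CPM stood for 37.1 to 56.0 counts.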

Additional observations from a re-analysis of the deposited data

How the results depend on the processing

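The replicate block decided the calls over all genes. The blocked fit called 1591 genes, 607 higher and 984 lower, and with no replicate block 0 were called, with 2089 genes at an unadjusted p-value under 0.05; ComBat-seq with limma called 1037 higher and 1100 lower. Without the fold threshold 3505 genes were called, with 3 of the 44 higher and 7 lower; with single cultures left out these were 2 to 3 and 0 to 8. Leaving out cultures gave 878 genes called (both cultures numbered 1 removed) to 2010 (HC-HA/PTX3 replicate 2 removed), with 957 when vehicle replicate 1 and 895 when its HC-HA/PTX3 partner was removed. Of the 44 genes, 0 to 1 were then called higher (Ppp1r15a, with either or both cultures numbered 3 removed) and 0 to 2 lower (Creld2 and Nupr1, with HC-HA/PTX3 replicate 2 or both cultures numbered 2 removed; Creld2 alone, at -0.51, with vehicle replicate 2 removed). The median of the ER arm stayed between -0.10 and -0.02 and that of the ATF4 arm between -0.14 and 0.04, moving by less than the SD of the medians of the 3 pairs. Over 26 members, 4 of 468 comparisons turned the sign: Xbp1 ran from -0.019 (vehicle replicate 1 removed) to 0.11 and Atf4 from -0.0044 (HC-HA/PTX3 replicate 2 removed) to 0.22. The 9 other pathway genes called all lost the call with no block; in the other settings 34 of their 152 comparisons lost it, 11 of them Stc2 and 0 of them Gdf15, Bbc3 or Shmt1. Genes differing among replicate numbers were 36 to 38 of the 44 under the other filters, scalings and tests, and 11 to 37 with cultures left out, the 11 being without both cultures numbered 3. Of all tested genes, 24.2% to 36.1% differed under the former settings and 12.4% to 29.0% with cultures left out. Fits with a culture left out keep 2 complete pairs, and the cause of the changes was not tested.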
